A study of Homo sapiens with 12 samples.

Results

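The 10 genes described here were 7 Krüppel-like factors, KLF4, KLF5, KLF6, KLF9, KLF10, KLF11 and KLF16, and the 3 members of the NR4A family, NR4A1, NR4A2 and NR4A3. They were found by matching Ensembl identifiers to gene symbols, and were 10 of the 26058 genes listed. All 10 passed the filter on low values and were among the 22067 genes tested. RNA came from HEK293 cells, a human embryonic kidney line (WT), and from a derivative made with CRISPR in which PRKAA1 and PRKAA2 were knocked out (AMPK KO). These genes encode the catalytic α subunits of AMPK, a kinase that senses cellular energy. The derivative is a single modified line, so that AMPK loss and any other difference between the lines cannot be told apart. Both lines were serum starved for 24 h and then received DMSO, DMSO followed by 30 min of epidermal growth factor (EGF), or 25 µM cordycepin followed by 30 min of EGF. Cordycepin is 3′-deoxyadenosine, an adenosine analogue. The EGF groups were treated for 50 min in all, of which the first 20 min were with DMSO or cordycepin alone. The length of the DMSO treatment without EGF was given as 20 min in one place and as 50 min in another, and the EGF dose as 15 with conflicting units. Each of the 6 groups held 2 libraries, numbered 2 and 3. The study calls them biological replicates, while the sources do not say whether they were separate cultures, so p-values measure the spread between these libraries. No group received cordycepin without EGF.

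Krüppel-like factors bind GC-rich and CACCC-type DNA through a conserved set of zinc fingers, and different members activate or repress transcription. NR4A proteins are orphan nuclear receptors that are regulated mainly by how much of them is made, and NR4A1 in particular is a classical immediate early gene, transcribed within minutes of a growth factor without new protein synthesis. The NR4A genes are also known targets of CREB, which binds the cAMP response element.

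The libraries differed in depth. WT DMSO replicate 3 held 3563018 reads on genes with whole recovered reads, and the other 11 held 11256706 to 23558268. WT DMSO replicates also differed most from each other (r = 0.918 over genes, against 0.961 to 0.977 in the other groups). PRKAA1 was at 21.9 and 15.4 RPKM in WT DMSO and at 7.62 and 7.37 in AMPK KO DMSO, and fell by 1.26 on the log2 scale (limma adjusted p = 0.0228). PRKAA2 had 12.1 and 7.97 against 5.59 and 6.09 RPKM, a log2 difference of -0.73 that did not pass (adjusted p = 0.112). With EGF, PRKAA1 again passed (log2 difference -1.12, limma adjusted p = 0.0236) and PRKAA2 did not (-0.59, adjusted p = 0.134). With cordycepin and EGF neither gene passed. PRKAA1 was at 11.3 and 11.2 RPKM in WT and 7.03 and 8.50 in AMPK KO cells (log2 difference -0.49, adjusted p = 0.28), and PRKAA2 at 6.78 and 7.30 against 5.39 and 7.43 (-0.12, adjusted p = 0.804). Of the 6 markers of HEK293 cells examined, KRT8, KRT18, VIM and NEFL were at 7.998 RPKM or more in every library, while NEFM and PAX2 did not exceed 0.851 RPKM. The leukocyte gene PTPRC and the fibroblast gene COL3A1 were at most at 0.061 and 0.300 RPKM.

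The promoter sequences of a few of these genes are shown because these families are known both as targets of CREB and as proteins that bind GC-rich promoters. RefSeq windows of 250 bases before a transcription start (GRCh38.p14) were used for 8 of the 10 genes, with 11 windows in all. No window was used for KLF10 or NR4A2, so both genes are left out of the counts below, and whether their promoters hold these letters was not tested. In each window the letters TGACG (the core of a cAMP response element), GGGCGG (the GC box) and CACCC (the CACCC box) were searched on both strands, and matches could overlap each other. TGACG was found in 5 of the 11 windows, against 21.2% of all 35116 windows, GGGCGG in 7, against 42.6%, and CACCC in 6, against 54.7%. Capitals mark these letters below, read 5′ to 3′ on the gene's strand. The windows shown are those of KLF6, the gene that passed the test, of KLF11 and KLF16, which had the widest ranges among the KLF genes, and of NR4A1 and NR4A3, which differ in TGACG.
KLF6, chr10:3785210-3785459, minus strand: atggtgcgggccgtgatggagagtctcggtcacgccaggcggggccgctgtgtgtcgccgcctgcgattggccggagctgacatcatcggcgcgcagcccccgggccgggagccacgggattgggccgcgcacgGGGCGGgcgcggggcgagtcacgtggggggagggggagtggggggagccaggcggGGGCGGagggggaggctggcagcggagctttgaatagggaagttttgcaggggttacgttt
KLF11, chr2:10043579-10043828, plus strand: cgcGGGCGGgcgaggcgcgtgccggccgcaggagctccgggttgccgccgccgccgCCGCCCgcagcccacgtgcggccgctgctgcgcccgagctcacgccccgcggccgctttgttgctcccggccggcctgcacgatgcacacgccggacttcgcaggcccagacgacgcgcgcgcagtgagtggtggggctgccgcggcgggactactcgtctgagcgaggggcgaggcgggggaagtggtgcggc
KLF11, chr2:10043971-10044220, plus strand: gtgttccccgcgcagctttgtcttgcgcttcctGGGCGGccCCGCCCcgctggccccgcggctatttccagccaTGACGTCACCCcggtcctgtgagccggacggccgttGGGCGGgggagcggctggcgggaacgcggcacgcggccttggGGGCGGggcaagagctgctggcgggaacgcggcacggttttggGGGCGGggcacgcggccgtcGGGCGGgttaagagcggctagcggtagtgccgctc
KLF16, chr19:1863580-1863829, minus strand: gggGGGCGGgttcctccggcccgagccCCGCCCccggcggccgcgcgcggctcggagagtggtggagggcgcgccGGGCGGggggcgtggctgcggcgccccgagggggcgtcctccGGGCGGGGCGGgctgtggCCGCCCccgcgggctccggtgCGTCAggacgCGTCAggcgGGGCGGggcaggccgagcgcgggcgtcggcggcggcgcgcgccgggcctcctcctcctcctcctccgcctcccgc
NR4A1, chr12:52022582-52022831, plus strand: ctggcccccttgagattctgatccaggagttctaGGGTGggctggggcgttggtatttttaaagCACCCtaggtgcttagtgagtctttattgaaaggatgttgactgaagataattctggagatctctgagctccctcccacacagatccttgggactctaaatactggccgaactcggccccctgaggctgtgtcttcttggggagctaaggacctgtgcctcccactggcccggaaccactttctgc
NR4A1, chr12:52037465-52037714, plus strand: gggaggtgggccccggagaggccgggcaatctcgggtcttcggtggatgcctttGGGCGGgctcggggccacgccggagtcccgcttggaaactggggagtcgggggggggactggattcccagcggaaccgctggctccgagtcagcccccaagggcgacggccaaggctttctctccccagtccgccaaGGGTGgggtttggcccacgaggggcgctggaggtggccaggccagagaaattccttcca
NR4A3, chr9:99821635-99821884, plus strand: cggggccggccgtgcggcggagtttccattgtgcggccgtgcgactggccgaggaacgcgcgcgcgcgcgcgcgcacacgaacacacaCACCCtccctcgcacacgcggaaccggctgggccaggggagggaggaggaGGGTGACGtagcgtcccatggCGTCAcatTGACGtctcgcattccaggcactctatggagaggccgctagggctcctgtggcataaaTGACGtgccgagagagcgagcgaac
The NR4A3 window held 4 matches to TGACG and the 2 NR4A1 windows held 0. The NR4A1 windows end at 52022831 and 52037714, while the gene runs to 52059507, so any start further downstream was not searched. The upstream KLF11 window held 2 GC boxes and no TGACG, and the downstream one held 6 GC boxes and 2 matches to TGACG that form a single palindrome. The KLF16 window held 7 GC boxes and 2 matches to TGACG. KLF6 had 2 GC boxes and none of the other letters searched. A match is a description of the letters and was not tested as a binding site.

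RPKM divides reads by gene length, so levels can be set beside each other between genes. KLF16 had the highest mean level over the 12 libraries, 9.48 RPKM, followed by KLF9 with 8.59, KLF5 with 8.43 and KLF6 with 8.31 RPKM. KLF10 had a mean of 5.47 RPKM. NR4A2 (2.81 RPKM), NR4A1 (2.62), KLF4 (1.64) and KLF11 (1.59) were lower, and NR4A3 was lowest, with 0.601 RPKM. KLF16 stood at the 79.4th percentile of the mean levels of all listed genes and NR4A3 at the 18.3rd. Between the lowest and the highest library the level ranged 4.51-fold for KLF11, 3.14-fold for NR4A1, 3.10-fold for NR4A2 and 2.75-fold for KLF16, and 1.43-fold for KLF5, the steadiest of the 10.

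**Figure D1:**
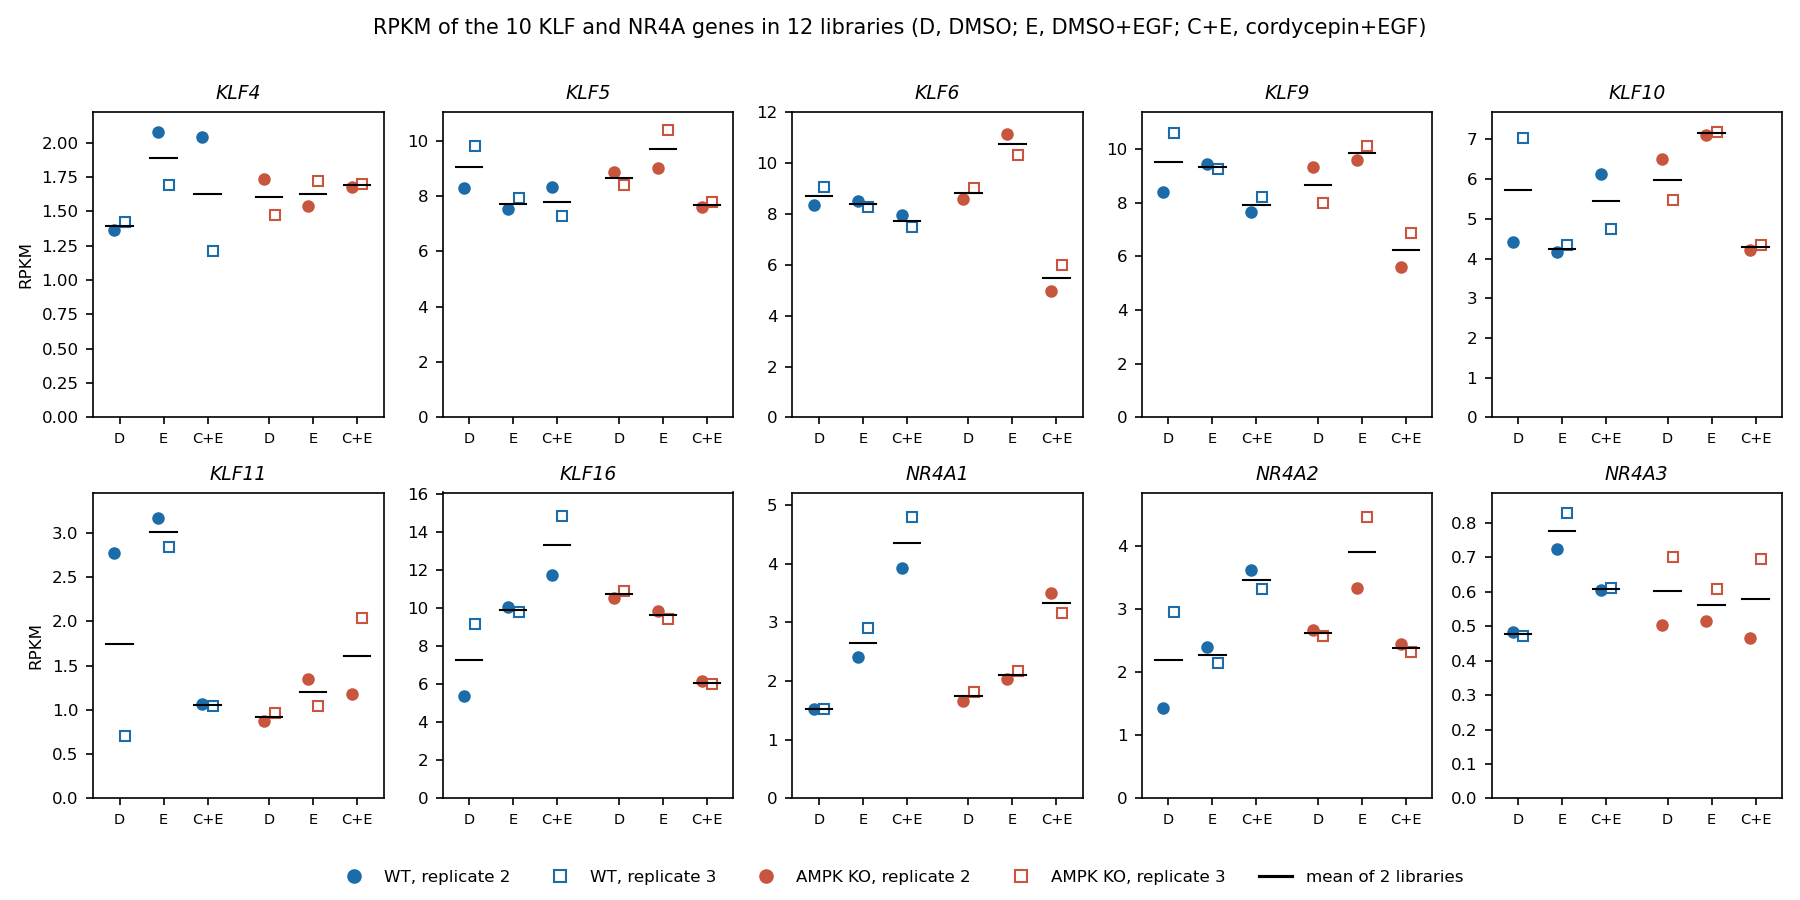
Each panel shows 1 gene, with RPKM on the vertical axis from 0 and the 6 groups on the horizontal axis (blue, WT; red, AMPK KO; filled circles, replicate 2; open squares, replicate 3; black bars, means of 2 libraries). NR4A1 ranges from 1.53 to 4.80 RPKM over the WT libraries, KLF6 is lowest in AMPK KO cells given cordycepin (4.95 and 5.98 RPKM), and the WT DMSO replicates of KLF11 lie far apart (2.77 and 0.703 RPKM).

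NR4A1 (also called Nur77) separated the treatments most cleanly. Its gene (ENSG00000123358) lies on the plus strand of chromosome 12, from 52022832 to 52059507 (GRCh38). In WT cells it was at 1.53 and 1.53 RPKM with DMSO, 2.41 and 2.91 with EGF, and 3.92 and 4.80 with cordycepin and EGF. In AMPK KO cells the same treatments gave 1.66 and 1.82, 2.03 and 2.16, and 3.50 and 3.16 RPKM. Thus in both lines EGF libraries lay above DMSO libraries and cordycepin libraries above both, and no 2 of the 6 groups overlapped. NR4A1 was the only one of the 10 genes with this property, which 0.159% of the genes tested had. As these are bulk libraries, less RNA per cell and fewer cells that make a transcript cannot be told apart here or below.

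EGF raised the immediate early genes used to gauge its size by far more than any of the 10. FOS was at 0.903 and 0.624 RPKM in WT DMSO and at 12.2 and 11.8 RPKM after EGF, and EGR1 went from 2.64 and 2.38 to 230 and 207 RPKM. On the log2(scaled RPKM + 0.5) scale used throughout, which understates changes of low genes, the EGF effect in WT cells was 6.16 for EGR1 (limma adjusted p = 2.48e-06) and 3.29 for FOS (adjusted p = 0.000593). The largest effect among the 10 with an unadjusted p under 0.05 was that of NR4A1, a log2 difference of 0.61 (SE 0.16, a 1.52-fold difference), which did not pass adjustment over all genes (limma adjusted p = 0.437, unadjusted p = 0.00424).

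None of the 10 genes passed an adjusted p under 0.05 for EGF in WT cells (0 of 10, against 0.0227% of all genes). At an unadjusted p under 0.05, 1 of 10 was higher (6.18% of all genes) and 0 were lower (3.53%). KLF16 was 10.1 and 9.78 RPKM with EGF in WT cells, above both DMSO libraries (5.39 and 9.13). NR4A3 (also called NOR1; chromosome 9, 99821855 to 99866891, plus strand, ENSG00000119508) was likewise above both, at 0.725 and 0.828 RPKM against 0.484 and 0.472. KLF5 (chromosome 13, 73054976 to 73077541, plus strand, ENSG00000102554), a factor linked to proliferation of epithelial cells, was below both, at 7.53 and 7.91 RPKM against 8.29 and 9.79. These values gave log2 differences of 0.44, 0.37 and -0.24 (adjusted p = 0.515, 0.53 and 0.558). The median over the 10 genes was 0.19 (all genes, 0.02), with 6 positive and 4 negative.

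In AMPK KO cells, 0 of 10 genes passed for EGF (0.0136% of all genes). With an unadjusted p under 0.05, 1 was higher (1.03% of all genes) and 0 were lower (1.4%). That gene was KLF6, which was at 8.57 and 9.04 RPKM with DMSO and at 11.1 and 10.3 RPKM with EGF (log2 difference 0.28, SE 0.12, limma adjusted p = 1). NR4A1 differed by 0.22 and NR4A2 by 0.49 on the log2 scale. The EGF effect did not differ detectably between the lines for any of the 10 (0 of 10 at an adjusted p under 0.05, as for 0% of all genes). At an unadjusted p under 0.05, 0 of 10 were higher in AMPK KO cells (3.3% of all genes) and 0 were lower (5.38%). For NR4A1 the difference of effects was -0.39 (95% interval of -0.90 to 0.13).

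KLF11, a TGF-beta-inducible repressor, showed how far a single library can set an effect of EGF. It lies on chromosome 2 from 10042849 to 10054836, plus strand (ENSG00000172059). WT DMSO replicate 2 held 217 reads of it (2.77 RPKM) and replicate 3 held 13 reads (0.703 RPKM). The exact Poisson interval of replicate 3, which covers counting error only, was 0.374 to 1.20 RPKM, below the 2.42 to 3.17 RPKM of replicate 2. With EGF the WT libraries had 3.17 and 2.84 RPKM. The EGF effect was 0.79 (SE 0.41, limma adjusted p = 0.535), and was 0.07 without WT DMSO replicate 3 (adjusted p = 0.943) but 1.52 without replicate 2 (adjusted p = 0.0343). In the last case 1 of 10 genes passed, against 3.18% of all genes, and without replicate 3 none did, against 0.0181%. KLF16 depended on the same pair in the opposite sense, with an EGF effect of 0.09 without replicate 2 and of 0.79 without replicate 3.

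Cordycepin, given before EGF, was compared with EGF alone in each line. In WT cells 0 of 10 genes passed at an adjusted p under 0.05 (0.00453% of all genes). Without adjustment (p under 0.05), 1 was higher (8.86% of all genes) and 1 was lower (7.13%). The gene that was higher was NR4A1, by 0.66 (SE 0.16, 1.58-fold, limma adjusted p = 0.262), whereas EGR1 fell by 2.00 with cordycepin (adjusted p = 0.0439) and FOS had a log2 difference of -0.76 (adjusted p = 0.262). The gene that was lower was KLF11, with 1.07 and 1.04 RPKM against 3.17 and 2.84 RPKM, a log2 difference of -1.13 (SE 0.41, 2.19-fold lower, adjusted p = 0.277). Both KLF11 libraries given cordycepin lay below both given EGF alone. With limma voom on the recovered reads KLF11 and NR4A1 passed (adjusted p = 0.0332 and 0.0343), which is 2 of 10 against 3.96% of all genes.

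NR4A2 and KLF16 also had higher values with cordycepin in WT cells, without passing. NR4A2 (Nurr1; chromosome 2, 156324437 to 156342348, minus strand, ENSG00000153234), a receptor best known from dopamine neurons, had 3.63 and 3.32 RPKM with cordycepin against 2.41 and 2.14 with EGF alone. KLF16, described as a regulator of dopamine receptor genes, had 11.7 and 14.8 RPKM against 10.1 and 9.78. In each case the libraries did not overlap, a separation whose share among all genes was not counted. The log2 differences were 0.56 (limma adjusted p = 0.324) and 0.44 (adjusted p = 0.326).

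In AMPK KO cells KLF6 fell with cordycepin, and was the only gene of the 10 to pass. KLF6, a broadly expressed factor first found as a protein that binds core promoter elements, lies on chromosome 10 from 3775996 to 3785281, minus strand (ENSG00000067082), and its upstream window is printed above. It was at 4.95 and 5.98 RPKM with cordycepin and at 11.1 and 10.3 RPKM with EGF alone, and the DMSO libraries lay between, at 8.57 and 9.04 RPKM. The log2 fold change was -0.87 (SE 0.12, 1.83-fold lower, limma adjusted p = 0.0325). This was 1 of 10 genes against 0.471% of all genes. The log2 fold change kept its sign in all 24 alternatives, from -0.99 to -0.76, but the adjusted p ranged from 0.00577 to 0.236. It was 0.101 when only these groups entered the fit and 0.0563 with a replicate block within each line, and it was over 0.05 on leaving out any 1 of 9 of the 12 libraries. The exceptions were both WT DMSO libraries and replicate 3 of AMPK KO cells given cordycepin.

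**Figure D2:**
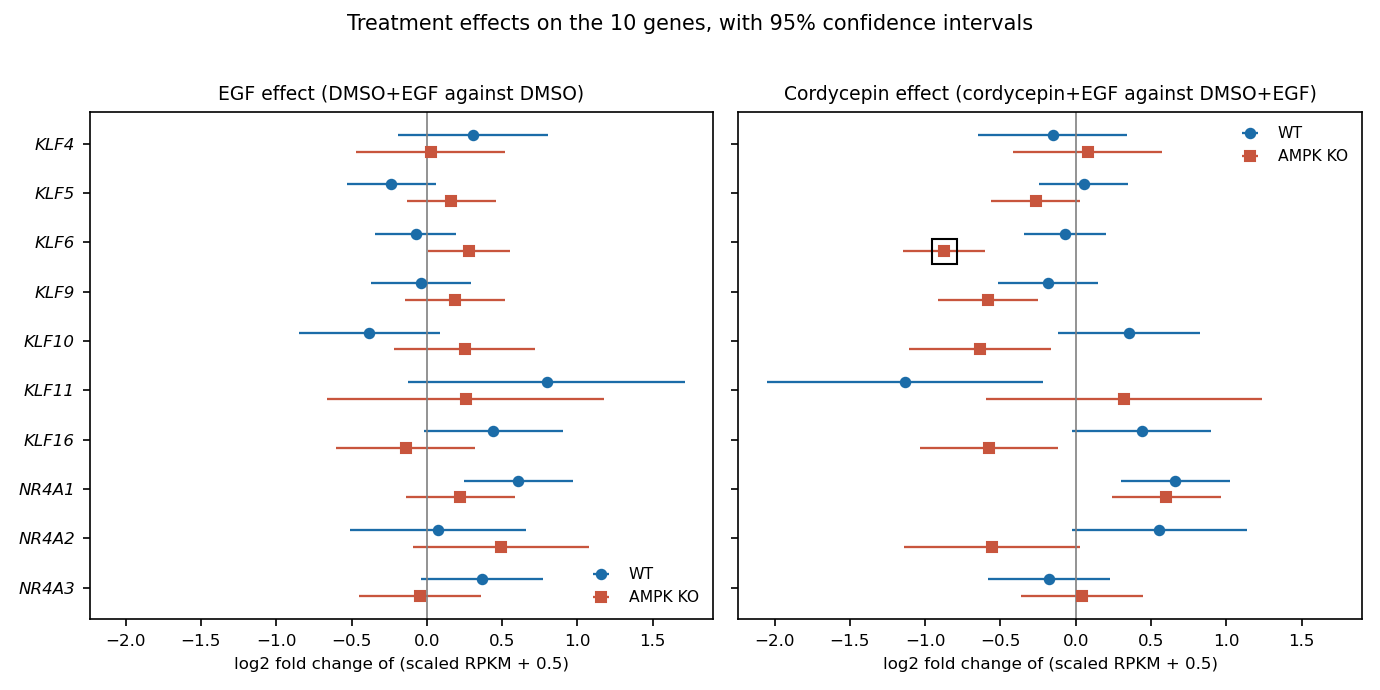
Log2 fold changes of (scaled RPKM + 0.5) for EGF (left) and for cordycepin with EGF (right), with 95% confidence intervals from the limma fit (blue circles, WT; red squares, AMPK KO; a black outline marks an adjusted p under 0.05). KLF6 in AMPK KO cells at -0.87 is the only outlined point, and NR4A1 is the only gene whose cordycepin intervals lie above 0 in both lines.

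At an unadjusted p under 0.05, 4 of 10 genes were lower with cordycepin in AMPK KO cells, against 10.1% of all genes, and 1 was higher, against 11.7%. Besides KLF6, the lower genes were KLF9, KLF10 and KLF16. KLF9 (chromosome 9, 70384604 to 70414657, minus strand, ENSG00000119138), a gene induced by glucocorticoids and thyroid hormone, had 5.62 and 6.86 RPKM with cordycepin against 9.59 and 10.1 with EGF alone (log2 difference -0.58, SE 0.15, limma adjusted p = 0.0858). KLF16 had 6.17 and 5.98 RPKM against 9.82 and 9.40 (-0.58, SE 0.20, adjusted p = 0.157). In all of them both cordycepin libraries lay below both libraries given EGF alone and below both DMSO libraries. They were picked by p-values from the same libraries, so the separation from EGF alone adds no support. The share of all genes with this pattern was not counted.

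KLF10, like KLF11 a TGF-beta-inducible early gene, lies on chromosome 8 from 102648784 to 102655725, minus strand (ENSG00000155090). In AMPK KO cells it had 6.50 and 5.48 RPKM with DMSO, 7.12 and 7.18 with EGF, and 4.22 and 4.34 with cordycepin. The cordycepin effect was -0.64 (SE 0.21, limma adjusted p = 0.136). In WT cells EGF alone gave the lowest pair, 4.16 and 4.34 RPKM, against 6.13 and 4.75 with cordycepin and 4.41 and 7.02 with DMSO. The order of EGF and cordycepin was thus opposite in the lines, without overlap in either.

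NR4A1 was the gene that was higher with cordycepin in AMPK KO cells at an unadjusted p under 0.05, by 0.60 (SE 0.16, 1.52-fold, limma adjusted p = 0.0949). Its cordycepin effect differed by -0.06 between the lines, with a 95% interval of -0.57 to 0.45. The contrast with FOS seen in WT cells did not recur in AMPK KO cells. There FOS had a positive log2 difference with cordycepin, 0.45 (limma adjusted p = 0.248), while EGR1 had -0.89 (adjusted p = 0.0644). The cordycepin effect differed between the lines by 1.21 for FOS and 1.12 for EGR1 (adjusted p = 0.122 for each). NR4A2 pointed the other way from WT cells, with 2.46 and 2.33 RPKM against 3.34 and 4.47 (-0.56, SE 0.26, adjusted p = 0.247). NR4A3 did not separate, with 0.465 and 0.694 RPKM against 0.515 and 0.608, from 43 and 83 reads against 45 and 53. KLF4 (chromosome 9, 107484852 to 107490482, minus strand, ENSG00000136826), a factor known for pluripotency and epithelial differentiation, was at 1.68 and 1.70 RPKM against 1.54 and 1.72.

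Whether the cordycepin effect differed between the lines was tested directly. At an adjusted p under 0.05, 0 of 10 genes passed, as for 0% of all genes. Counting unadjusted p-values under 0.05, 4 of 10 were lower in AMPK KO relative to WT, against 10.5% of all genes, and 1 was higher, against 10.9%. The differences of log2 effects were -1.11 for NR4A2 (SE 0.36, limma adjusted p = 0.149), -1.01 for KLF16 (SE 0.29, adjusted p = 0.13), -0.99 for KLF10 (SE 0.29, adjusted p = 0.137) and -0.80 for KLF6 (SE 0.17, adjusted p = 0.122). KLF11 had a difference of 1.45 (SE 0.57, adjusted p = 0.196). For KLF10, KLF16 and NR4A2 the cordycepin libraries lay wholly above those with EGF alone in WT cells and wholly below them in AMPK KO cells, which held for 3 of 10 genes and for 18.3% of all genes tested. The same opposite pattern for EGF against DMSO held for KLF5, KLF10 and KLF16, again 3 of 10, against 10.3% of all genes.

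These 5 genes did pass when either WT DMSO library was left out of the fit. That group takes no part in the comparison of cordycepin with EGF alone, but its replicates contribute to the spread shared by all groups. Without WT DMSO replicate 2 the adjusted p of the difference between lines was 0.0285 for KLF6, 0.0324 for KLF10, 0.032 for KLF11, 0.0196 for KLF16 and 0.0304 for NR4A2, and the differences themselves were the same to 2 decimals. They were then 5 of 10 against 9.06% of all genes, and 5 of 10 against 9.09% without replicate 3. In AMPK KO cells alone, 4 of 10 genes (KLF6, KLF9, KLF10 and KLF16) passed for cordycepin without replicate 2, against 6.16% of all genes, and 4 of 10 without replicate 3, against 6.12%.

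The lines were compared within each treatment. With DMSO, 0 of 10 genes passed (0.44% of all genes). At an unadjusted p under 0.05, 1 was higher in AMPK KO (12% of all genes) and 0 were lower (9.29%). The gene was KLF16, with 10.5 and 10.9 RPKM in AMPK KO against 5.39 and 9.13 in WT cells (log2 difference 0.56, SE 0.20, limma adjusted p = 0.176). Without WT DMSO replicate 3 it passed, at 0.90 (adjusted p = 0.0135), and so did KLF11, at -1.22 (adjusted p = 0.025), which is 2 of 10 against 13.9% of all genes. Without replicate 2 neither passed (0 of 10, against 0.82%), KLF16 had 0.21 and KLF11 had the opposite sign, 0.23.

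**Figure D3:**
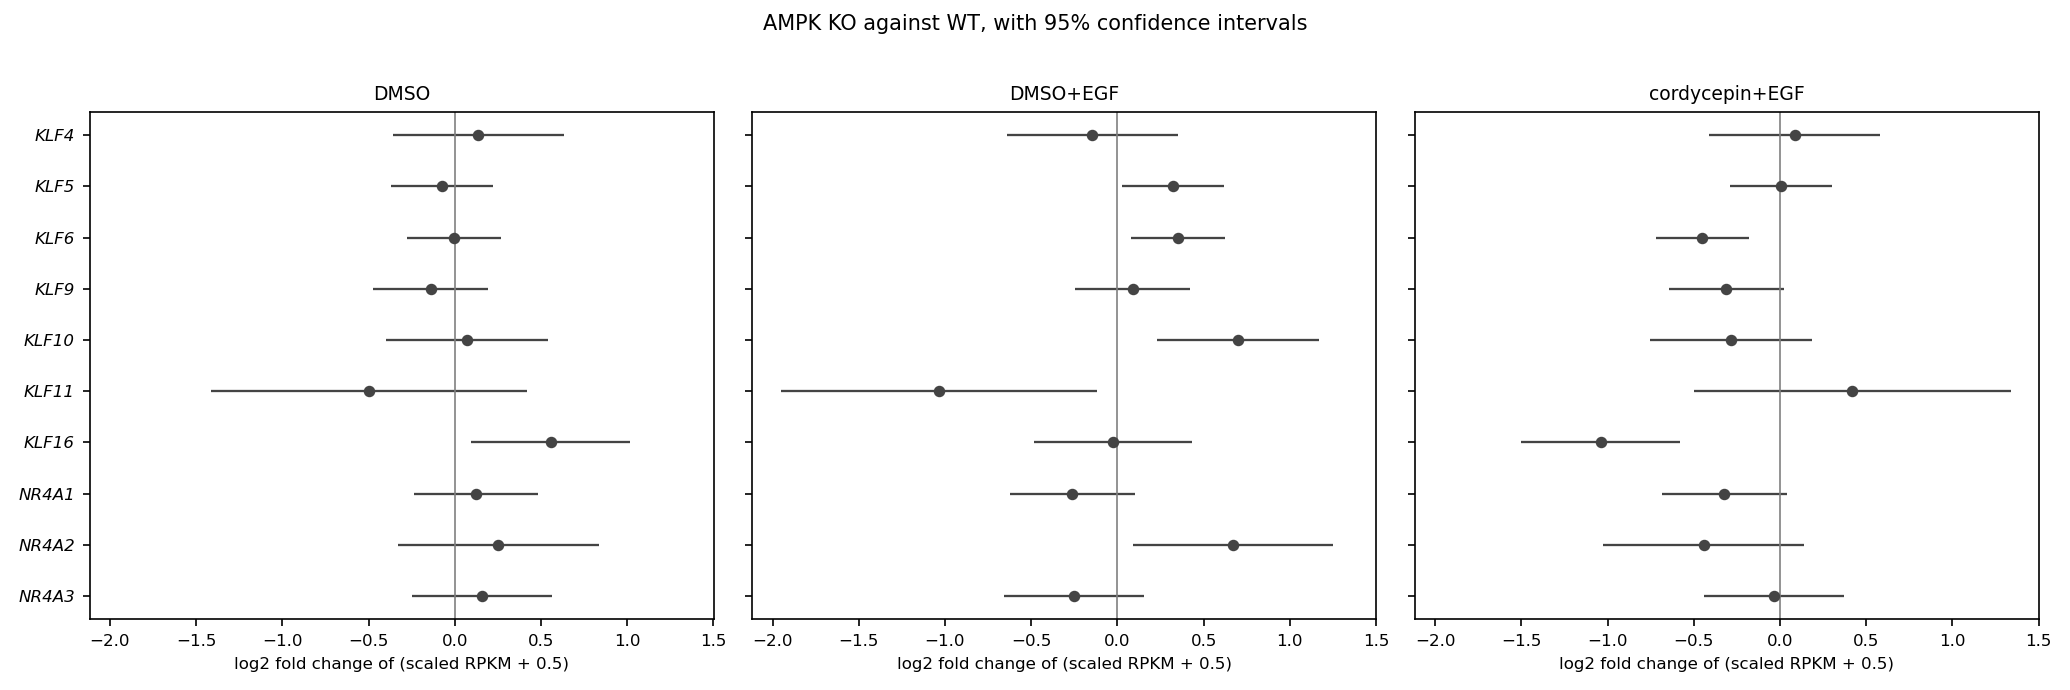
Log2 differences of (scaled RPKM + 0.5), AMPK KO minus WT, for DMSO (left), DMSO+EGF (middle) and cordycepin+EGF (right), with 95% confidence intervals on a shared axis. KLF16 has 0.56 with DMSO and -1.04 with cordycepin and EGF, KLF11 has -1.04 with EGF and 0.42 with cordycepin and EGF, and none of the points has an adjusted p under 0.05.

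With EGF, 0 of 10 passed (1.74% of all genes). With an unadjusted p under 0.05, 4 of 10 were higher in AMPK KO cells (11.1% of all genes) and 1 was lower (11.4%). KLF10 was higher by 0.70 (SE 0.21, limma adjusted p = 0.101), NR4A2 by 0.67 (adjusted p = 0.169), KLF6 by 0.35 (adjusted p = 0.135) and KLF5 by 0.32 (adjusted p = 0.188). KLF11 was lower, with 1.35 and 1.04 RPKM against 3.17 and 2.84 (log2 difference -1.04, 2.05-fold lower, adjusted p = 0.176). In all 5 genes the WT and AMPK KO libraries did not overlap. As p-values from these libraries picked the 5, this adds no support, and its share over all genes was not counted. On leaving out either WT DMSO library, KLF10, KLF11 and NR4A2 passed, 3 of 10 against 10.7% of all genes.

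With cordycepin and EGF, 0 of 10 passed (0.118% of all genes). Without adjustment (p under 0.05), 2 of 10 were lower in AMPK KO (6.64% of all genes) and 0 were higher (7.1%). KLF16 differed most, with 6.17 and 5.98 RPKM in AMPK KO against 11.7 and 14.8 RPKM in WT cells (log2 difference -1.04, SE 0.20, 2.06-fold lower, limma adjusted p = 0.15). KLF6 had a log2 difference of -0.45 (adjusted p = 0.227). KLF16 passed on leaving out either WT DMSO library (adjusted p = 0.0177 and 0.0175), 1 of 10 against 0.344% of all genes. KLF16 (chromosome 19, 1852399 to 1863579, minus strand, ENSG00000129911) overlaps a long non-coding gene on the other strand, and NR4A3 overlaps STX17-DT in the same way. The strand setting of the read counting was not given in the sources used here, so reads of these partners could not be told apart.

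Over the 12 libraries, ordered by mean level, the groups of NR4A1 ran from WT DMSO through AMPK KO DMSO, AMPK KO EGF, WT EGF and AMPK KO cordycepin to WT cordycepin, with no overlap between neighbours. KLF6 and KLF16 had 3 pairs of neighbouring groups apart and 2 overlapping. The lowest KLF6 group, AMPK KO with cordycepin, and the highest, AMPK KO with EGF, were apart from their neighbours. The lowest KLF16 group was AMPK KO with cordycepin, which overlapped WT DMSO, and the highest was WT with cordycepin, which stood apart. KLF4, KLF5 and KLF9 had 4 of 5 neighbouring pairs overlapping, so the order of their groups is mostly not resolved by 2 libraries each. KLF10, KLF11, NR4A2 and NR4A3 had 3 of 5 pairs overlapping.

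Among the 10 genes, KLF6 and KLF9 varied most alike over the 12 libraries (Pearson r = 0.868 of log2 values), with KLF5 and KLF10 next (r = 0.867). KLF10 and KLF11 varied most oppositely (r = -0.736). Libraries of a group share their treatment, so these values are descriptions. Of all genes with a mean of at least 1 RPKM, the most alike was WSCD1 for KLF11 (r = 0.984), DDT for KLF16 (r = 0.969), MRPS15 for KLF10 (r = 0.963), ABHD17B for KLF6 (r = 0.957) and VCPIP1 for KLF9 (r = 0.93). For KLF10 the next was SP4 (r = 0.958), a factor of the related SP family. The second for KLF11 was AMBRA1 (r = 0.982), for KLF16 CDC34 (r = 0.951), for KLF6 PPP2R2A (r = 0.935) and for KLF9 EIF1AXP1 (r = 0.928), a processed pseudogene. For NR4A1 the most alike were the lncRNA ENSG00000288234 (r = 0.954) and CRACR2B (r = 0.934), for NR4A2 PPP1R15A (r = 0.921) and SMIM10L2B (r = 0.899), and for NR4A3 HGS (r = 0.894) and HDAC7 (r = 0.871). KLF4 was most like FGFRL1 (r = 0.898) and SSR2 (r = 0.854), and KLF5 most like the pseudogene ENSG00000236773 (r = 0.967) and NFATC3 (r = 0.953).

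Of 20 other members of the KLF and SP family, 14 were listed and 11 were tested. KLF7, a KLF known from neuronal development, was higher in AMPK KO cells with EGF (3.54 and 3.83 RPKM against 1.85 and 1.97, log2 fold change 0.81, limma adjusted p = 0.0475). It was the only one to pass in any comparison (1 of 11 here, against 1.74% of all genes). Its AMPK KO libraries also lay above those of WT with DMSO (3.45 and 3.03 against 1.97 and 2.20 RPKM). With cordycepin and EGF they did so too (3.04 and 3.32 against 1.83 and 1.53 RPKM). At an unadjusted p under 0.05, 3 of 11 were higher in AMPK KO cells with EGF (11.1% of all genes) and 0 lower (11.4%), the others being SP1 (0.73) and SP4 (0.69). Both belong to the SP family, which binds the same GC boxes as KLF proteins. For the difference of cordycepin effects SP1 had -0.87 and SP4 -0.86 (adjusted p = 0.139 for each), and KLF12 had 0.55 (adjusted p = 0.212). With cordycepin in AMPK KO cells SP4 had a log2 difference of -0.55 (adjusted p = 0.142).

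Cofactors and partners of the 10 genes, such as the SIN3 corepressors, histone deacetylases and retinoid X receptors, were tested for 14 of 15 genes, and none passed in any comparison. SIN3A, the corepressor that KLF10, KLF11 and KLF16 bind, was at 0.56 in AMPK KO against WT cells with EGF (adjusted p = 0.0608) and at -0.59 for the difference of cordycepin effects (limma adjusted p = 0.142). Of the CREB and MEF2 factors that act on NR4A promoters, 9 of 10 were tested and none passed. CREM, a CREB relative, had 0.67 in AMPK KO against WT cells with EGF (adjusted p = 0.0533) and 0.52 with cordycepin in WT cells (adjusted p = 0.262). For the difference of cordycepin effects the values were -0.85 for CREM, -0.83 for ATF1, 0.99 for CREB1 and 0.63 for CRTC3 (adjusted p = 0.122, 0.139, 0.139 and 0.21). CREB1 and ATF1 had opposite signs with cordycepin in AMPK KO cells too, at 0.56 (adjusted p = 0.179) and -0.58 (adjusted p = 0.122).

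Among 7 genes known as targets of KLF proteins, all tested, CDKN1A passed, and in 1 comparison (1 of 7, against 0.44% of all genes). CDKN1A, the cyclin-dependent kinase inhibitor p21 and a known target of KLF4 and KLF6, had 20.5 and 22.8 RPKM in AMPK KO DMSO against 11.0 and 10.8 in WT DMSO (log2 fold change 0.93, SE 0.12, limma adjusted p = 0.0228). Its EGF effect in WT cells was 0.55 (adjusted p = 0.428), with 15.3 and 17.8 RPKM. CCND1, the gene of cyclin D1, had -1.07 in AMPK KO against WT cells with EGF (adjusted p = 0.0671). TGFBR1, the TGF-beta type I receptor gene, had -0.50 with cordycepin in AMPK KO cells (adjusted p = 0.0795) and -0.89 for the difference between lines (adjusted p = 0.122), and TGFB1 had 0.77 for that difference (adjusted p = 0.194).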

How the data were processed

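The authors sequenced stranded, ribosomal RNA-depleted libraries with paired reads, mapped them to GRCh38.p13 and counted with Rsubread. The deposited values are RPKM, read counts divided by gene length and by library size. Replicate 1 was set aside by the authors as an outlier in every condition and is not analysed here. The table had 2 rows that named no gene, which were left out. Identifiers were matched to GENCODE release 44.

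Upper-quartile scaling was applied per library, and values were tested as log2(scaled RPKM + 0.5) with limma 3.58.1 in R 4.3.3 (lmFit, eBayes with trend, two-sided), over the 22067 genes with a mean of at least 0.5 RPKM. All 12 libraries entered 1 fit of 6 group means with 6 residual degrees of freedom, and p-values were Benjamini-Hochberg adjusted over all genes within each of 9 comparisons. SE is the moderated standard error. Reads were recovered from the steps of the RPKM values: for 25072 genes (96.22%), including the 10 described, every one of the 12 libraries came within 0.05 of a whole read count. Reads carry no molecular identifiers, so intervals from them cover counting error only. The code was tested on simulated data. Differences between replicates 2 and 3 correlated over genes with r = 0.136 to 0.314 among the 3 pairs of WT groups. Among the pairs of AMPK KO groups r was -0.122 to 0.031, and across the lines it was -0.081 to 0.322. The main fit did not pair libraries by replicate number, and replicate blocks over all libraries or within each line were alternatives.

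The genes, the gene lists and the tests were chosen with earlier results of these data known. Named were the 10 genes, PRKAA1, PRKAA2, FOS, EGR1, the 2 genes with the highest Pearson r to each of the 10, and genes of the lists with an adjusted p under 0.05 or, up to 3 a comparison, the largest log2 differences of at least 0.5 with an unadjusted p under 0.05. A result that this rule would name is not reported here. The markers of HEK293 cells and of other cell types were a check of the label. Alternatives tried were a filter at 1 RPKM, none at all, pseudocounts of 0.1 and 1, RPKM as deposited, median-ratio scaling, only the groups compared, a replicate block over all libraries or within each line, eBayes without trend, array weights, limma voom on the recovered reads, and leaving out each library.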

Additional observations from a re-analysis of the deposited data

Results flagged for a closer look

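Opposite movement in the lines drew attention to several of the 10 genes: all libraries of one line moved one way and all libraries of the other the opposite way. For cordycepin against EGF alone the log2 differences of effect, AMPK KO minus WT, were -0.99 for KLF10, -1.01 for KLF16 and -1.11 for NR4A2 (limma adjusted p = 0.137, 0.13 and 0.149). For EGF against DMSO they were 0.40 for KLF5, 0.63 for KLF10 and -0.58 for KLF16 (limma adjusted p = 0.584, 0.584 and 0.593). None of these passed the test of the difference itself. The EGF values rest on the WT DMSO pair, in which the shallower library had 9.13 RPKM of KLF16 against 5.39 in the other, and the part of depth in them was not tested. Without WT DMSO replicate 2 the EGF difference was -0.23 for KLF16, 0.93 for KLF10 and 0.51 for KLF5, and without replicate 3 it was -0.93, 0.33 and 0.29.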

How the results depend on the processing

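Several alternatives changed how many of the 10 genes had an adjusted p under 0.05, and the share of all genes that passed, given in parentheses, rose and fell with them. For cordycepin in AMPK KO cells, where 1 gene passed (0.471%), the count was 0 with only the groups compared (0%), 0 with the replicate block within each line (0.0816%; adjusted p of KLF6 0.0563), 2 with array weights (5.41%) and 4 with voom (6.03%), and it ran from 0 to 4 (0% to 6.16%) on leaving out single libraries. For cordycepin in WT cells it was 2 with voom (3.96%). For AMPK KO against WT in DMSO it was 1 with voom (7.95%). In EGF it was 2 with only the groups compared (10.0%), 5 with array weights (22.8%) and 3 with voom (11.0%). In cordycepin and EGF it was 1 with voom (1.41%). For the difference of cordycepin effects it was 3 with only the groups compared (5.11%), 3 with array weights (6.6%) and 5 with voom (9.36%). For EGF in WT cells it stayed 0 in the alternatives that kept all libraries. In AMPK KO against WT, in the difference of cordycepin effects and in EGF in WT cells, leaving out a WT DMSO library also changed the count. Those counts are given with their shares in the Results. Both EGF in AMPK KO cells and the difference of EGF effects kept a count of 0 in all alternatives. Apart from the samples and genes each alternative uses, the cause of these changes was not tested.

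The 22 effects with an unadjusted p under 0.05 gave 528 values under 24 alternatives each, of which 463 kept their side of the threshold, 54 newly passed, 11 no longer passed and 0 changed sign. Over all 90 effects of the 10 genes, 20 changed sign in at least 1 alternative. The replicate block over all libraries changed no call of the 10 genes. With 2 libraries a group and 12 to 52 reads of NR4A3 in the WT DMSO libraries, differences of the lowest genes were the least precise.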
